A study of Homo sapiens with 6 samples.

Results

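Interleukin-1 (IL-1) family genes, their receptors and caspase-1 were examined in human MCF10A mammary epithelial cells with and without overexpression of the potassium channel subunit GIRK1. The 10 genes were the ligands IL1A, IL1B, IL18, IL33 and IL36G, the receptor antagonist IL1RN, the receptors IL1R1 and IL1RAP, the decoy receptor IL1R2 and the protease CASP1. They were chosen by name, with differences between these libraries already known, and are 10 of 20802 genes measured. IL1B stood out among them: its mean level in the GIRK1 overexpressors was 35.0-fold below the eGFP control line, but 4.13-fold below the parental library compared. IL1A lay 4.44-fold below the eGFP line without passing the test. For both genes, passing depended on which controls were taken.

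IL-1 alpha and IL-1 beta, the products of IL1A and IL1B, bind the receptor IL1R1, which then recruits the accessory protein IL1RAP and signals through MYD88 and IRAK kinases to NF-kappaB and AP-1. IL1RN and IL1R2 hold this signal down, IL1RN by occupying the receptor and IL1R2 by capturing ligand without signalling. Caspase-1 cuts the inactive precursors of IL-1 beta and IL-18 inside inflammasomes, whereas epithelial cells store IL-1 alpha and IL-33 and release them on damage.

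MCF10A is an established non-tumorigenic line with basal mammary features. Parental cells (MCF10A-WT) were compared with cells stably transfected with an eGFP plasmid (MCF10A-eGFP), and with cells that received the same plasmid carrying human KCNJ3, which encodes GIRK1 (MCF10A-GIRK1). Both transfected lines were selected with G418 and sorted for eGFP fluorescence, so they differ from MCF10A-WT by plasmid, drug and sorting too. There were 2 libraries of each, and because the sources speak both of replicates and of separate lines, the p-values measure the spread between these samples, which may be technical.

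One short amplicon per gene was sequenced, and a level is given in RPM, the reads of an amplicon scaled to the total reads of the library. Amplicons differ in efficiency and RPM is not scaled to transcript length, so differences between lines were taken for each gene by itself, and RPM of different genes shows their share of reads, not their transcript levels. Libraries held 2506120 to 16040556 reads, and 3 reads, taken as the lowest level that could be told from none, were worth 0.187 to 1.197 RPM. KCNJ3 had 217 and 355 RPM in MCF10A-GIRK1 and 0 reads in MCF10A-eGFP and in MCF10A-WT replicate 2. MCF10A-WT replicate 1 stood apart: KCNJ3 was present at 19.2 RPM, the basal keratins KRT14 and KRT17 had 0 reads, and the luminal markers ESR1 and KRT19 reached 192 and 924 RPM, against 0 reads of ESR1 and KRT19 in the other 5 libraries. The 8 luminal markers summed to 13980 RPM in this library and to 390 to 493 RPM in the others. Basal markers were low in this library but not all absent, as 3 of 8 had at least 3 reads and the 8 summed to 385 RPM. MCF10A-WT replicate 1 is given apart. It enters only the fit of all 6 libraries, the search for like profiles and the results flagged for a closer look. Its reads also counted in choosing the genes over which the spread between libraries was taken. In the other 5 libraries the 8 basal markers summed to 14827 to 33900 RPM, although TP63, the basal transcription factor among them, had 0 reads. The 8 leukocyte markers summed to 22.3 to 45.8 RPM in those libraries, all but a trace from CD68 and CD14, with 0 reads of the pan-leukocyte gene PTPRC. The names of the deposited data place both MCF10A-GIRK1 libraries under a tag that the other 4 libraries do not carry. If that tag marks a run, run and GIRK1 overexpression cannot be told apart.

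**Figure D1:**
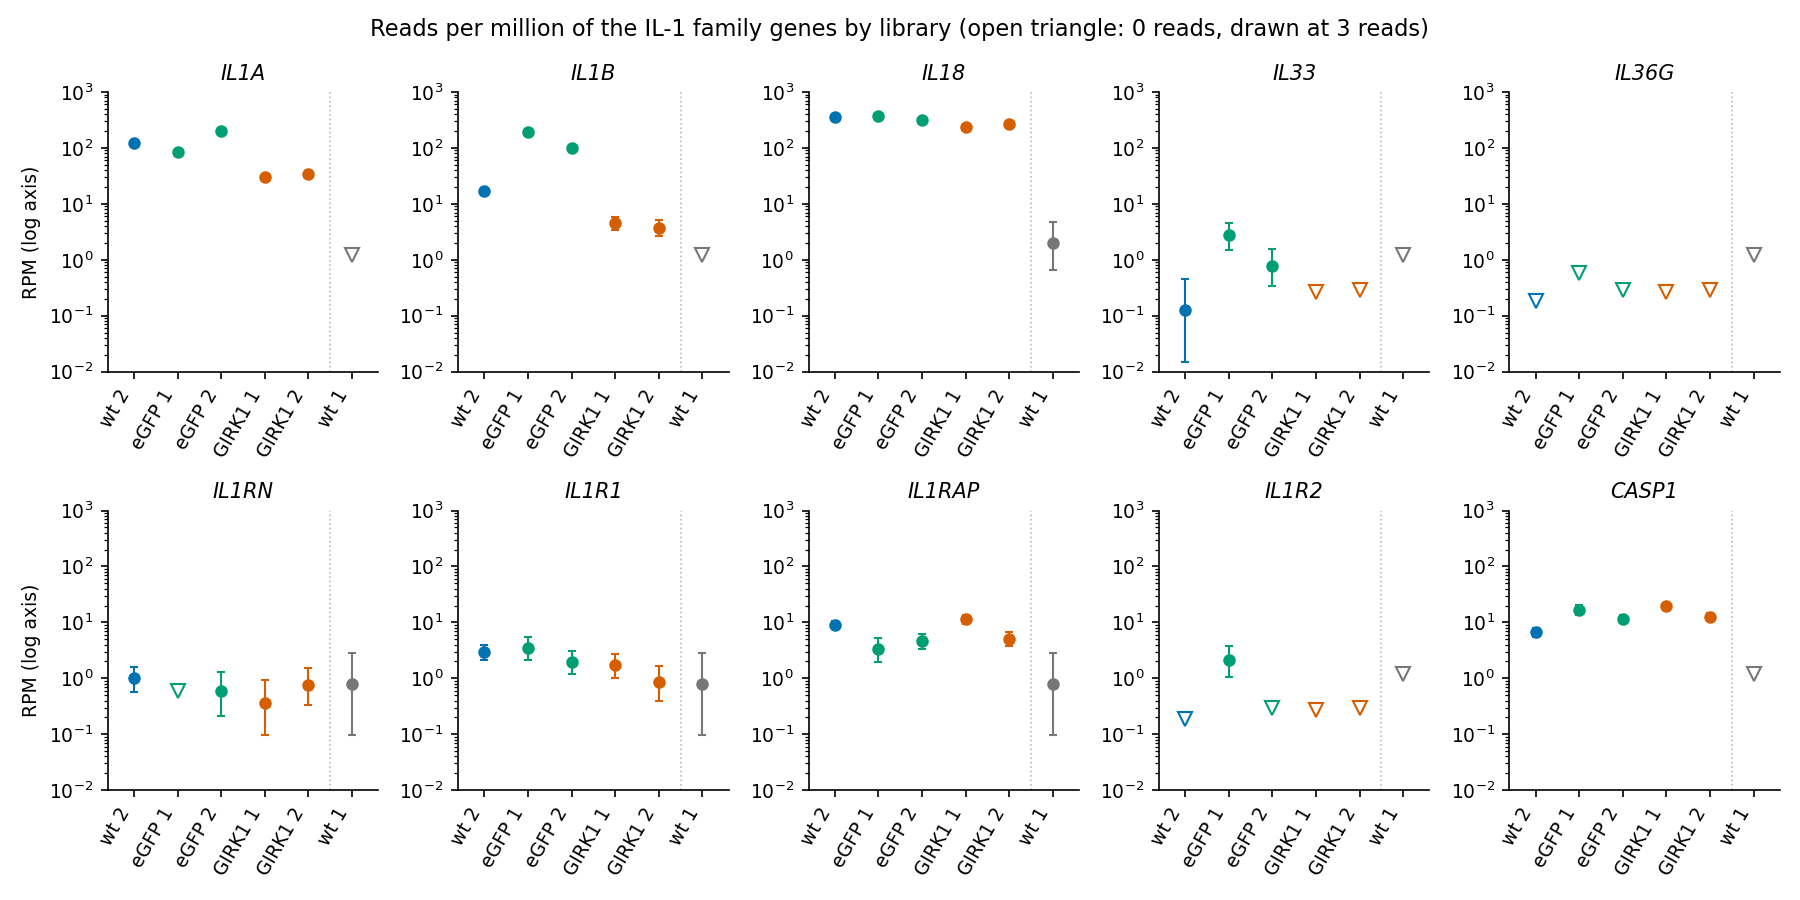
Level of each IL-1 family gene in each library, in RPM on a log axis, with 95% Poisson intervals that cover counting error only. Blue, green and orange points are MCF10A-WT replicate 2, MCF10A-eGFP and MCF10A-GIRK1, grey is MCF10A-WT replicate 1, and an open triangle at the level of 3 reads marks 0 reads. IL1B falls from 190 and 99.4 RPM in MCF10A-eGFP to 4.50 and 3.77 RPM in MCF10A-GIRK1, whereas CASP1 overlaps between these lines.

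IL1B encodes the IL-1 beta precursor, the main secreted form of IL-1 in inflammation. It had 190 RPM (976 reads) and 99.4 RPM (1017 reads) in MCF10A-eGFP replicates 1 and 2. In MCF10A-GIRK1 it had 4.50 RPM (50 reads) and 3.77 RPM (39 reads), and in MCF10A-WT replicate 2 it had 17.1 RPM (274 reads). Both MCF10A-GIRK1 libraries thus lay below MCF10A-eGFP and MCF10A-WT replicate 2, which itself lay between the transfected lines. The means were 145 ± 64.3 RPM in MCF10A-eGFP, against 4.14 ± 0.518 RPM in MCF10A-GIRK1 (SD, n = 2 each), a 35.0-fold difference. The log2 fold change in edgeR's quasi-likelihood fit of these 4 libraries was -5.18 ± 0.43 (SE), with a Benjamini-Hochberg adjusted p of 0.00452 over the 11279 genes tested. In these bulk samples, fewer cells that express a gene and less of its RNA per cell cannot be told apart. The summed leukocyte markers were higher in MCF10A-eGFP (45.8 and 44.1 RPM) than in MCF10A-GIRK1 (35.1 and 31.0 RPM). In MCF10A-WT replicate 2 they were below both transfected lines, at 22.3 RPM, whereas IL1B lay between these lines there. The 8 fibroblast markers summed to 10.7 and 8.60 RPM in MCF10A-eGFP, 13.7 RPM in MCF10A-WT replicate 2 and 31.9 and 33.5 RPM in MCF10A-GIRK1. Most of the fibroblast difference came from DCN, at 0.780 and 3.71 RPM in MCF10A-eGFP and at 27.0 and 25.2 RPM in MCF10A-GIRK1, while COL1A2, PDGFRA and THY1 had 0 reads in every library. The part of these markers in the result was not tested. The size of the difference depended on the control. MCF10A-WT replicate 2 was 3.79-fold and 4.53-fold above the MCF10A-GIRK1 libraries, and the MCF10A-eGFP libraries were themselves 11.1-fold and 5.82-fold above MCF10A-WT replicate 2. With MCF10A-WT replicate 2 pooled with MCF10A-eGFP as controls, IL1B was no longer called (log2 fold change -4.67, edgeR adjusted p = 0.0907). Over all 6 libraries, where MCF10A-WT replicate 1 entered the estimate of the spread, the log2 fold change was -5.19 and the edgeR adjusted p was 0.902.

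IL1A encodes IL-1 alpha, whose precursor is already active when released from damaged epithelium. It had 85.2 RPM (437 reads) and 200.0 RPM (2047 reads) in MCF10A-eGFP. MCF10A-WT replicate 2 had 124 RPM (1995 reads), within the range of MCF10A-eGFP. MCF10A-GIRK1 had 30.0 RPM (333 reads) and 34.2 RPM (354 reads). The MCF10A-GIRK1 libraries were close to each other and did not overlap with the controls. The means were 142.6 ± 81.2 RPM in MCF10A-eGFP, against 32.1 ± 2.99 RPM in MCF10A-GIRK1 (SD, n = 2 each), a 4.44-fold difference. The log2 fold change was -2.17 ± 0.38 (SE), and IL1A just missed the threshold of 0.05 (edgeR adjusted p = 0.0511). The MCF10A-eGFP libraries differed 2.35-fold in IL1A, and leaving out either of them changed the call, the lone library then being assumed to vary like the MCF10A-GIRK1 pair. Without MCF10A-eGFP replicate 1 the log2 fold change was -2.63 (edgeR adjusted p = 1.33e-05), and without replicate 2 it was -1.51 (edgeR adjusted p = 0.000443). With MCF10A-WT replicate 2 pooled into the controls, IL1A was called (log2 fold change -2.10, edgeR adjusted p = 0.0453), the only one of the 10 genes in that fit. Against MCF10A-WT replicate 2, IL1A was 4.15-fold and 3.64-fold lower in the MCF10A-GIRK1 libraries. In contrast to IL1B, IL1A in MCF10A-eGFP lay on both sides of MCF10A-WT replicate 2, at 0.685 and 1.61 times its level.

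IL1A and IL1B are neighbours on chromosome 2. In the GENCODE annotation of GRCh38, IL1A is at chr2:112773915-112784590 and IL1B at chr2:112829751-112836903, both on the minus strand and 45.161 kb apart. IL36G and IL1RN follow on the same chromosome, and IL1R2 and IL1R1 lie farther away on it, 36.0 kb from each other. The ratio of IL1A reads to IL1B reads, taken within each library, was 6.66 and 9.08 in MCF10A-GIRK1 and 7.28 in MCF10A-WT replicate 2. In MCF10A-eGFP it was 0.448 and 2.01. The ratio in MCF10A-WT replicate 2 lay between those of the MCF10A-GIRK1 libraries, and both ratios in MCF10A-eGFP were lower.

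The 250 bases before the transcription start of IL1A (chr2:112784494-112784743) and IL1B (chr2:112836780-112837029) are shown because these neighbours gave the largest differences among the 6 genes tested. They are RefSeq sequences on GRCh38.p14, minus strand, 5′ to 3′. Capitals mark matches on either strand to the AP-1 motif (TGANTCA), a loose NF-kappaB motif (GGGNNNNNCC) or a TATA-type motif (ATAAAA).
IL1A: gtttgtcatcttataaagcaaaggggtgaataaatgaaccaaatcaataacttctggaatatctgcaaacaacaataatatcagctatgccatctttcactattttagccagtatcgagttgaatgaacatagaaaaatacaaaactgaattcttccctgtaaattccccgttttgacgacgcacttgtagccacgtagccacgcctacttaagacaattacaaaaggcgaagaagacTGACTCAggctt
IL1B: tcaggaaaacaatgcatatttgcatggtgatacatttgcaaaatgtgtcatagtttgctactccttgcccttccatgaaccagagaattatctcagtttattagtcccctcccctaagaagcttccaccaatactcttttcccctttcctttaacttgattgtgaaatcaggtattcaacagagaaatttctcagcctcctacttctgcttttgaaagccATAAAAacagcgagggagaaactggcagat

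The IL1A sequence holds TGACTCA at -12 to -6 from the annotated start, and an alternative IL1A start listed by RefSeq has 2 AP-1 matches upstream of it. The windows overlap, and the match at -105 to -99 from the alternative start is the same TGACTCA. The other is TGAGTCA at -55 to -49. The IL1B sequence holds ATAAAA at -30 to -25 and no match to the other motifs. Of 35116 human promoter windows of the same length, 6.57% held the AP-1 motif, 54.4% the NF-kappaB motif and 14.8% the TATA-type motif. Such matches are letters in a window and say nothing about binding in these cells. RefSeq windows were at hand for 8 of the 10 genes, the others being IL18 and CASP1. Among the rest, RefSeq windows with an AP-1 match were found only for IL1RN.

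IL18 encodes IL-18, the other cytokine precursor that caspase-1 cuts. Of the 3 ligands tested it differed least, with 373 and 312 RPM in MCF10A-eGFP, 351 RPM in MCF10A-WT replicate 2 and 235 and 266 RPM in MCF10A-GIRK1. The MCF10A-GIRK1 libraries were the lowest of the 5, and the gap was small. The means were 342 ± 42.5 RPM in MCF10A-eGFP, against 251 ± 21.7 RPM in MCF10A-GIRK1 (SD, n = 2 each). The log2 fold change of -0.49 ± 0.23 (SE) did not pass (edgeR adjusted p = 0.301), and among 14 alternative fits it passed only when MCF10A-eGFP replicate 2 was left out (log2 fold change -0.67, edgeR adjusted p = 0.0228). IL18 was 1.49-fold and 1.32-fold higher in MCF10A-WT replicate 2 than in the MCF10A-GIRK1 libraries.

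IL33 encodes a nuclear alarmin. It had 14 and 8 reads in MCF10A-eGFP (2.73 and 0.782 RPM), 2 reads in MCF10A-WT replicate 2 and 0 reads in both MCF10A-GIRK1 libraries. Reads above the level of 3 per library were thus seen in MCF10A-eGFP alone. Set against that level, the MCF10A-GIRK1 mean was at least 6.27-fold lower than the MCF10A-eGFP mean, a value that rests on few reads, and IL33 was too low to be tested. IL36G, an epithelial ligand, had 0 reads in all 6 libraries, so that it was not detectable at this depth.

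The natural inhibitors of IL-1 gave few reads. IL1RN, the receptor antagonist, had 0 and 6 reads in MCF10A-eGFP, 16 in MCF10A-WT replicate 2 and 4 and 8 in MCF10A-GIRK1, at most 0.997 RPM in these 5 libraries. The lines overlapped and IL1RN was too low to be tested. IL1R2, the decoy receptor, had 11 reads in MCF10A-eGFP replicate 1 (2.15 RPM) and 0 reads in the other 5 libraries.

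IL1R1, the signalling receptor for both forms of IL-1, had 3.51 and 1.95 RPM (18 and 20 reads) in MCF10A-eGFP and 2.93 RPM (47 reads) in MCF10A-WT replicate 2. In MCF10A-GIRK1 it had 1.71 and 0.870 RPM (19 and 9 reads). The MCF10A-GIRK1 libraries were the lowest, but the nearest MCF10A-eGFP and MCF10A-GIRK1 libraries differed by less than the replicates of either line. The log2 fold change was -1.07 ± 0.60 (SE) and did not pass (edgeR adjusted p = 0.366).

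IL1RAP is the accessory chain shared by the receptors for IL-1, IL-33 and IL-36. It had 3.32 and 4.59 RPM (17 and 47 reads) in MCF10A-eGFP, against 11.4 and 5.12 RPM (127 and 53 reads) in MCF10A-GIRK1. MCF10A-WT replicate 2 had 9.04 RPM (145 reads), between the MCF10A-GIRK1 libraries. The difference of 1.01 ± 0.48 (log2 fold change, SE) did not pass (edgeR adjusted p = 0.305), and the MCF10A-GIRK1 libraries differed 2.23-fold from each other.

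CASP1 encodes caspase-1. It had 16.8 and 11.5 RPM (86 and 118 reads) in MCF10A-eGFP, against 19.3 and 12.6 RPM (214 and 130 reads) in MCF10A-GIRK1. The transfected lines overlapped, and the log2 fold change was 0.13 ± 0.34 (SE, edgeR adjusted p = 0.852). Its sign was not stable, being -0.18 without MCF10A-eGFP replicate 2 and -0.20 without MCF10A-GIRK1 replicate 1. MCF10A-WT replicate 2 had 6.61 RPM (106 reads), the lowest of the 5 libraries. The MCF10A-eGFP libraries were 2.54-fold and 1.74-fold above it, and the MCF10A-GIRK1 libraries 2.92-fold and 1.90-fold. CARD16 and CARD17 are near-identical to the start of CASP1, and how reads shared between them were assigned is not given in the sources used here.

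**Figure D2:**
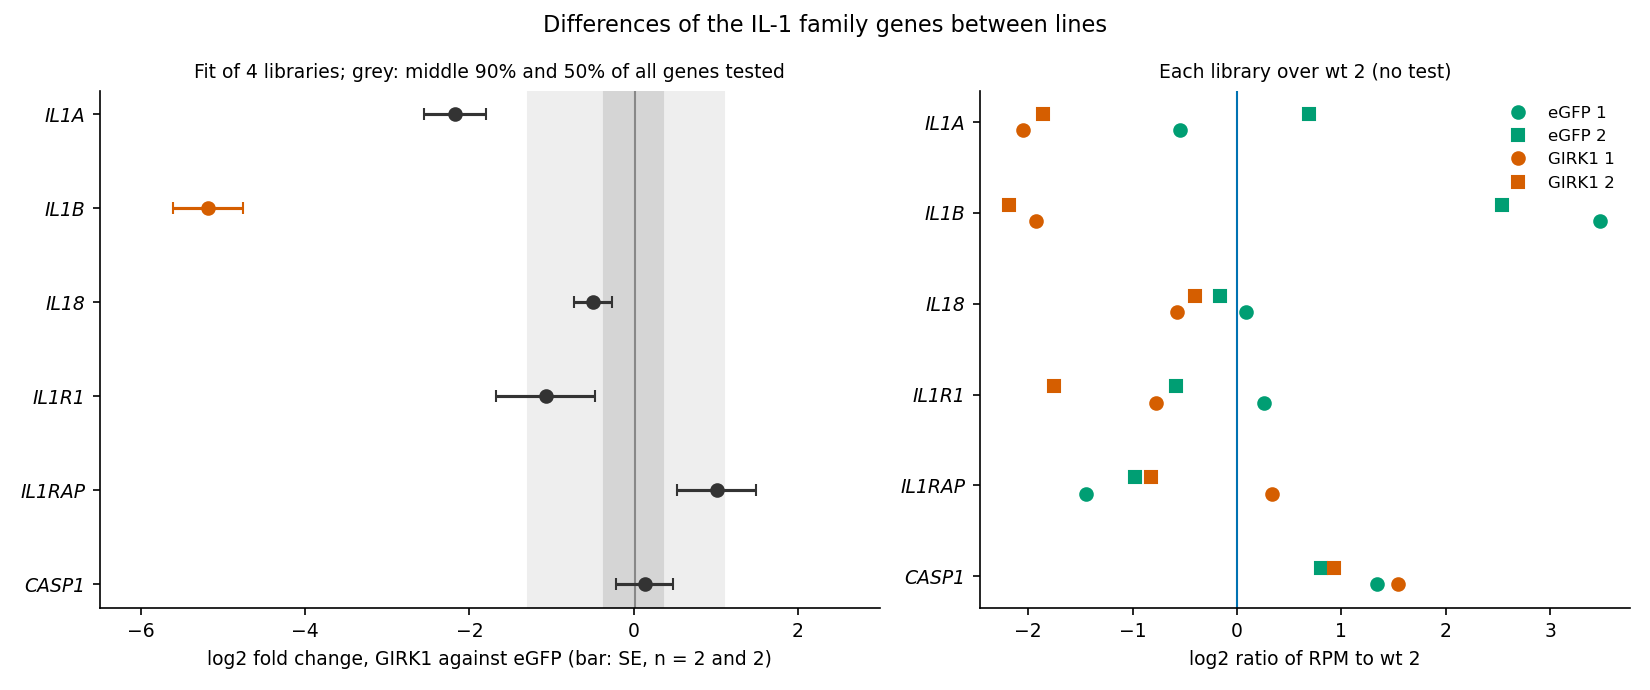
Left, log2 fold change (MCF10A-GIRK1 over MCF10A-eGFP) with SE from the edgeR fit for the 6 genes tested, orange where the adjusted p was below 0.05, over the ranges that hold the middle 50% (dark grey) and 90% (light grey) of all 11279 genes. Right, log2 ratio of RPM in each transfected library to MCF10A-WT replicate 2, with circles for replicate 1 and squares for replicate 2. IL1B at -5.18 and IL1A at -2.17 lie outside the range of -1.29 to 1.10 that holds 90% of genes, and both lines lie above MCF10A-WT replicate 2 for CASP1.

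Of the 10 genes, 6 had enough reads to be tested. IL1B was called lower in MCF10A-GIRK1 and 0 were called higher, against 0.745% of all genes tested called lower and 0.780% called higher. Their median log2 fold change was -0.78 (4 negative and 2 positive values), and that of all genes was 0.01. By RPM, 5 of the 9 genes with at least 3 reads in one of the 5 libraries (IL1A, IL1B, IL18, IL33 and IL1R1) were lower in both MCF10A-GIRK1 libraries than in MCF10A-eGFP and MCF10A-WT replicate 2, as were 18.0% of all such genes, and 0 were higher in both, as were 20.7%. For IL33 this rests on 2 reads in MCF10A-WT replicate 2. IL1A and IL1B were at least 2-fold below MCF10A-WT replicate 2 in both MCF10A-GIRK1 libraries, as were 2.89% of genes, and IL1B and IL33 were at least 2-fold above it in both MCF10A-eGFP libraries, as were 2.39%. None of the 10 was at least 2-fold above MCF10A-WT replicate 2 in both MCF10A-GIRK1 libraries or at least 2-fold below it in both MCF10A-eGFP libraries, as were 3.39% and 1.07% of genes. By the rule of the study, a mean at least 2-fold apart with a coefficient of variation below 0.7 in each line, 3 of the 10 were lower in MCF10A-GIRK1 (IL1A, IL1B and IL1R1) and 1 was higher (IL1RAP), as were 3.28% and 3.01% of all 20802 genes. Genes with 0 reads throughout a line have no such coefficient and could not be called, among them IL33, IL36G, IL1R2 and KCNJ3. Of the 20802 genes, 7469 had under 3 reads in all 5 libraries, as did 1 of the 10. These comparisons share libraries, and since the 10 genes were picked with such differences known, nothing is read from the counts.

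The rest of the pathway was taken from a list of 44 genes, and 23 of these could be tested. By edgeR 0 of them passed, against 1.52% of all genes, with 4 below an unadjusted p of 0.05 (IRAK2 with a negative log2 fold change, NEK7, SIGIRR and GSDMD with positive ones), and DESeq2 called IRAK2 only. The median log2 fold change of the 23 was 0.28, with 7 negative and 16 positive values. The other ligands and antagonists of the family, such as IL36A and IL37, were not tested, as 0 of 6 had enough reads. Of the other receptors, 2 of 7 were tested, IL18R1, which binds IL-18, and SIGIRR, an inhibitory receptor.

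Signal transduction genes were mostly present, with 14 of 15 tested. TAB2, an adaptor of the kinase TAK1 with the highest RPM on the list, had 117 and 237 RPM in MCF10A-eGFP, against 170 and 197 RPM in MCF10A-GIRK1, with MCF10A-WT replicate 2 at 182 RPM. UBE2N, a ubiquitin-conjugating enzyme that acts with TRAF6, had 224 and 171 RPM against 130 and 164 RPM, and MCF10A-WT replicate 2 had 167 RPM. TAB3, a relative of TAB2, had 56.4 and 63.5 RPM against 76.5 and 78.2 RPM, and MCF10A-WT replicate 2 had 62.9 RPM. The log2 fold changes of these genes were 0.03, -0.47 and 0.33, and their edgeR adjusted p-values were 0.961, 0.362 and 0.388. IRAK2, a kinase that sustains the signal, had the lowest log2 fold change on the list, -3.01 ± 0.61 (SE, edgeR adjusted p = 0.0774), and is named for that after its values were seen. It had 8.00 and 6.65 RPM in MCF10A-eGFP, 3.24 RPM in MCF10A-WT replicate 2 and 1.44 and 0.387 RPM in MCF10A-GIRK1. MCF10A-WT replicate 2 thus lay between the transfected lines for IRAK2, as it did for IL1B.

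Of 16 inflammasome genes, 7 were tested. CASP4, which senses bacterial lipopolysaccharide in the cell, had 137 and 149 RPM in MCF10A-eGFP, 140 RPM in MCF10A-WT replicate 2 and 195 and 180 RPM in MCF10A-GIRK1 (log2 fold change 0.35, edgeR adjusted p = 0.370). PYCARD, the adaptor that links most sensors to caspase-1, had 2 reads in MCF10A-WT replicate 2 and 0 reads in the 4 transfected libraries. It was named after its values were seen. The sensor NLRP3 was too low to be tested, with 7 reads over the 5 libraries.

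**Figure D3:**
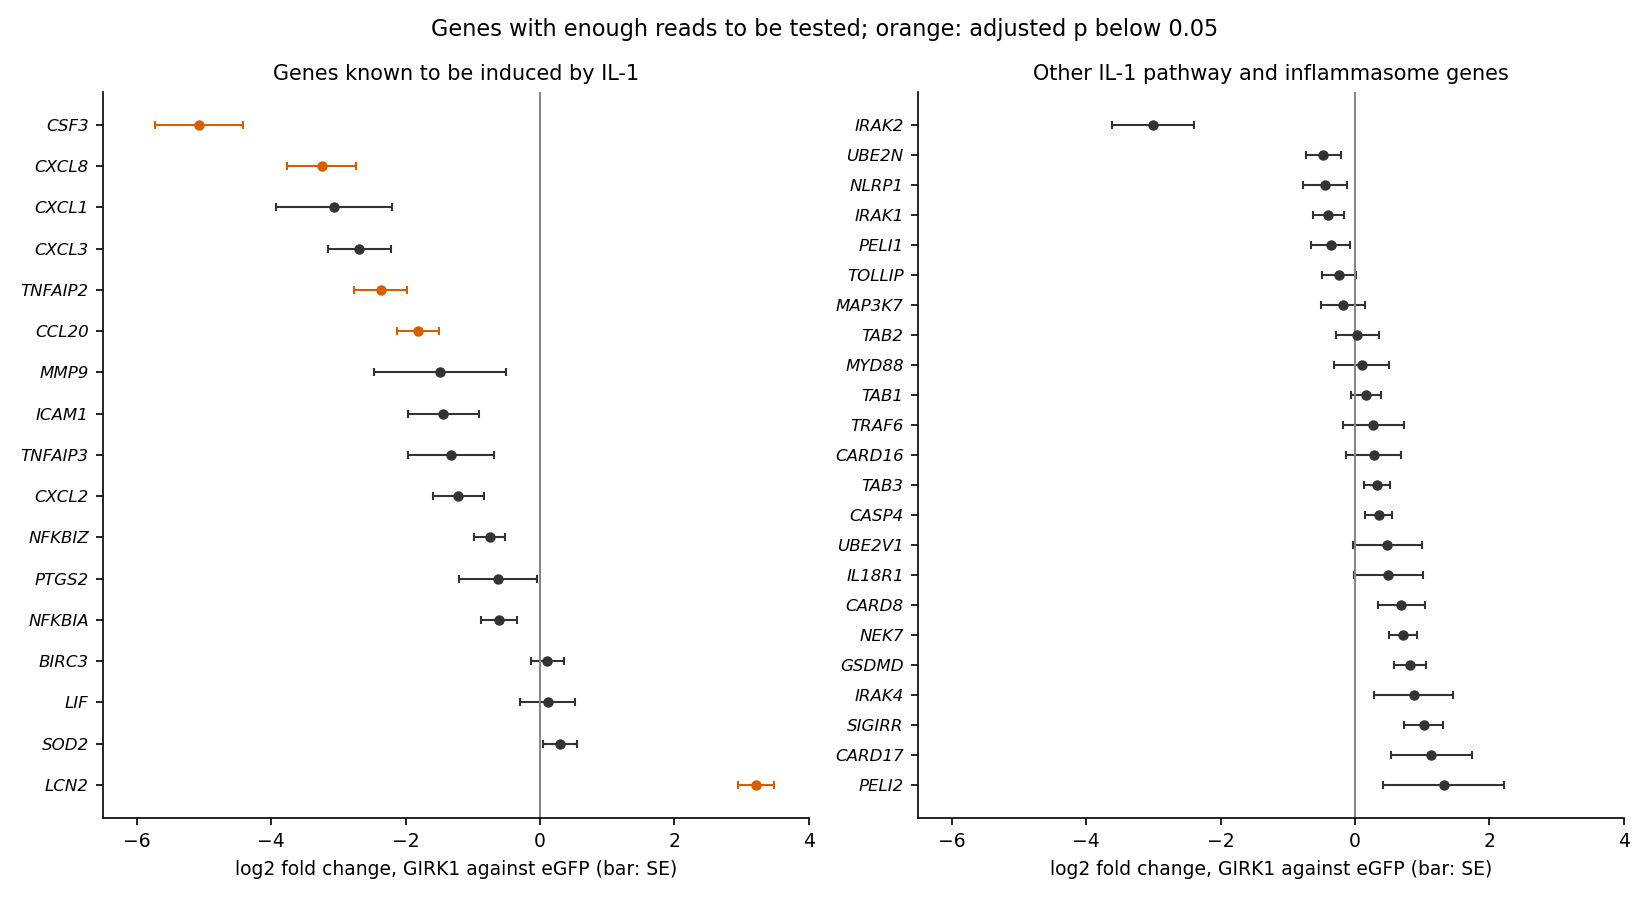
Log2 fold change (MCF10A-GIRK1 over MCF10A-eGFP) with SE for 17 genes known to be induced by IL-1 (left) and 23 other genes of the pathway (right), with orange points for an edgeR adjusted p below 0.05. CSF3 lies lowest at -5.07 and LCN2 highest at 3.21, and 0 of the 23 pathway genes are orange.

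Genes that IL-1 is known to induce in epithelial and other cells, through NF-kappaB, were taken from a list of 25, and 17 of these could be tested. In MCF10A-GIRK1, 4 of the 17 were called lower and 1 higher, against 0.745% and 0.780% of all genes. The median log2 fold change of the 17 was -1.32, with 13 negative and 4 positive values. This list, like that of the pathway, was chosen with earlier results of these data known, and nothing is read from either count. Inducers other than IL-1 act on these genes too, and IL-1 protein was not measured here.

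CSF3, which encodes the neutrophil growth factor G-CSF, had 199.5 and 345 RPM in MCF10A-eGFP, 72.9 RPM in MCF10A-WT replicate 2 and 13.2 and 3.19 RPM in MCF10A-GIRK1. Its log2 fold change was -5.07 ± 0.65 (SE, edgeR adjusted p = 0.0231). CXCL8, a neutrophil chemokine listed under its older symbol IL8, had 63.0 and 25.5 RPM in MCF10A-eGFP, 16.7 RPM in MCF10A-WT replicate 2 and 5.67 and 3.96 RPM in MCF10A-GIRK1 (log2 fold change -3.25 ± 0.52, edgeR adjusted p = 0.0420). Both genes followed the order of IL1B, with MCF10A-eGFP highest, MCF10A-WT between and MCF10A-GIRK1 lowest. TNFAIP2, a gene named for its induction by TNF, had 6.83 and 7.82 RPM in MCF10A-eGFP, 4.68 RPM in MCF10A-WT replicate 2 and 1.44 and 1.45 RPM in MCF10A-GIRK1 (log2 fold change -2.37 ± 0.40, edgeR adjusted p = 0.0474). CCL20, a chemokine for lymphocytes and dendritic cells, had 140.8 and 147 RPM, 80.7 RPM, and 30.1 and 53.5 RPM in the same order (log2 fold change -1.82 ± 0.31, edgeR adjusted p = 0.0490). LCN2, which encodes an iron-sequestering antibacterial protein, was the exception. It had 3.71 and 4.01 RPM in MCF10A-eGFP, 7.29 RPM in MCF10A-WT replicate 2 and 38.9 and 34.8 RPM in MCF10A-GIRK1 (log2 fold change 3.21 ± 0.27, edgeR adjusted p = 0.00452).

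With MCF10A-WT replicate 2 pooled into the controls, LCN2 alone of these 5 genes was called (edgeR adjusted p = 0.0086, against 0.0645 to 0.104 for the others). The log2 fold changes in that fit were -4.67 for CSF3, -2.89 for CXCL8, -2.16 for TNFAIP2 and -1.58 for CCL20. Over all 6 libraries 0 of the 5 were called, at edgeR adjusted p-values of 0.933 to 0.949. TNFAIP2 was not called without MCF10A-GIRK1 replicate 1 or replicate 2 (log2 fold change -2.35 and -2.39, edgeR adjusted p = 0.246 and 0.283), CCL20 not without replicate 1 (-1.45, 0.201) and CXCL8 not without replicate 2 (-3.03, 0.0663), while without MCF10A-eGFP replicate 2 the count of called genes on the list rose to 12. Not all genes of the list were lower. SOD2, a mitochondrial superoxide dismutase and the gene with the highest RPM on the list, had 830 and 958 RPM in MCF10A-eGFP, against 1367 and 898 RPM in MCF10A-GIRK1 (log2 fold change 0.30, edgeR adjusted p = 0.550). NFKBIA, the NF-kappaB inhibitor, had 244 and 179 RPM in MCF10A-eGFP, against 162 and 125 RPM in MCF10A-GIRK1 (log2 fold change -0.61, edgeR adjusted p = 0.277).

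**Figure D4:**
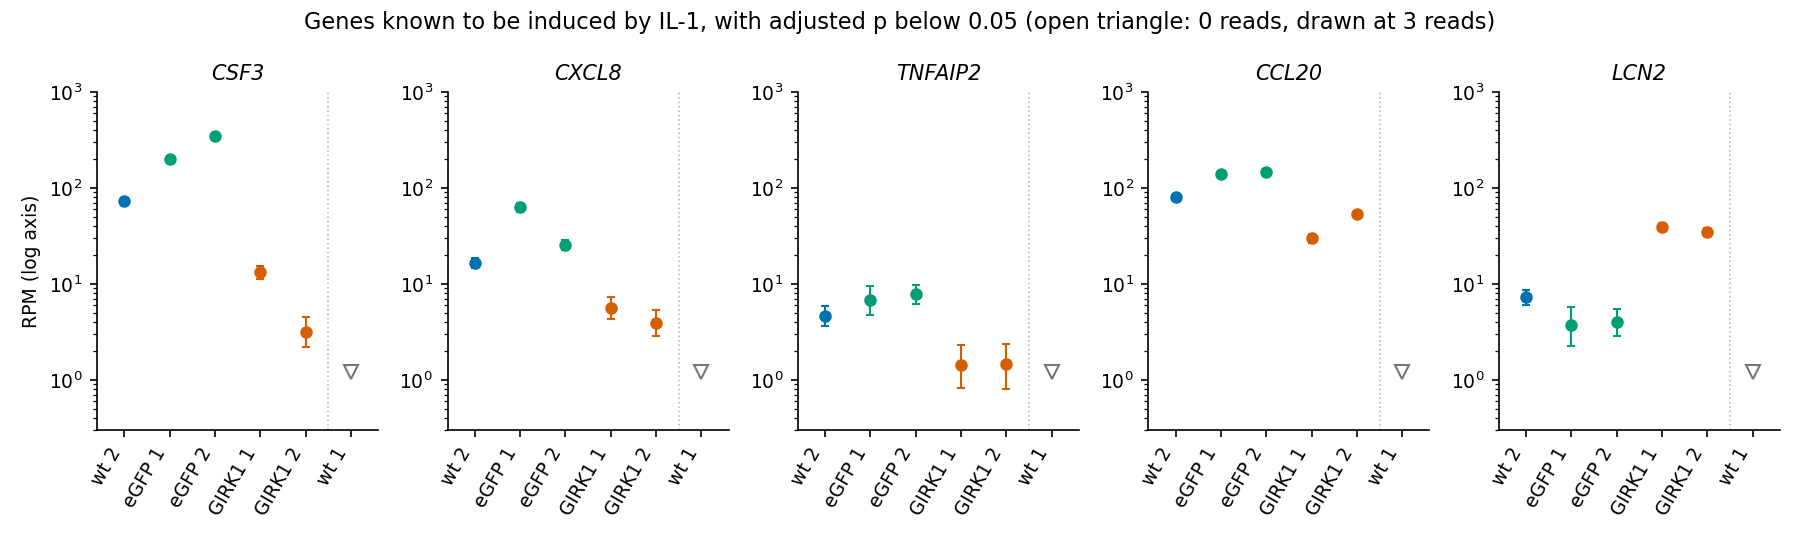
Level, in RPM on a log axis with 95% Poisson intervals, of the 5 genes known to be induced by IL-1 that passed the test, in MCF10A-WT replicate 2 (blue), MCF10A-eGFP (green), MCF10A-GIRK1 (orange) and MCF10A-WT replicate 1 (grey, with open triangles for 0 reads). CSF3, CXCL8, TNFAIP2 and CCL20 are lowest in MCF10A-GIRK1 among the 5 coloured points, and LCN2 is highest there.

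The genes whose levels over the 6 libraries were most like those of IL1B, by distance between profiles of log2(RPM + 1) centred on their mean, were LOXL2, SPRR1B, CA9, SPARC and CXCL8, at distances of 1.41 to 2.14 among 9521 genes. LOXL2, a collagen cross-linking enzyme, was the nearest, with 191 and 57.5 RPM in MCF10A-eGFP, 22.4 RPM in MCF10A-WT replicate 2 and 4.59 and 1.26 RPM in MCF10A-GIRK1. Among the genes nearest to CASP1 were TRNP1, GM2A, CYBRD1 and VSNL1, at 0.596 to 0.709. These lists include MCF10A-WT replicate 1, in which CASP1 had 0 reads and the nearest gene, TRNP1, had 5.19 RPM.

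In MCF10A-WT replicate 1, which is set apart, IL1A, IL1B, IL33, IL36G, IL1R2 and CASP1 had 0 reads, where 3 reads were worth 1.197 RPM. IL18 had 5 reads (1.995 RPM), against 235 to 373 RPM in the other 5 libraries, and IL1RN, IL1R1 and IL1RAP had 2 reads each.

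IL1A and IL1RAP also differed from the other genes in how their amplicons were read. Of the reads assigned to IL1A, 99.6% were in the forward direction, as were all reads assigned to IL1RAP, whereas such a one-sided share, over 95% or under 5%, was found in 0.840% of 10474 genes with at least 100 reads. The reads overlapping each amplicon were 2.13 and 2.15 times those assigned to it. With overlapping reads in place of assigned reads, an alternative added after the data were seen, the log2 fold changes were -2.09 for IL1A (edgeR adjusted p = 0.0609) and 0.94 for IL1RAP (edgeR adjusted p = 0.249).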

How the data were processed

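RNA of 6 MCF10A libraries was measured with the Ion AmpliSeq human transcriptome kit. The authors mapped reads to 20812 amplicons with the Ion Torrent suite and deposited whole-number read counts and RPM (counts scaled to the library total) per amplicon, and how near-identical copies were treated is not given in the sources used here. Of the amplicons, 10 were spike-in rows with 0 reads. Groups and replicate numbers came from the labels. Counts of MCF10A-eGFP and MCF10A-GIRK1 were fitted in R 4.3.3 by edgeR 4.0.16, which calls limma 3.58.1, using TMM, filterByExpr, the quasi-likelihood test and Benjamini-Hochberg adjustment over 11279 genes at 0.05, with standard errors from the F value. MCF10A-WT replicate 2, 1 library, was compared by RPM without a test. The procedure was tested on simulated counts with a spread taken from the same libraries, which cannot show how it handles a line or run effect. Alternatives were other scalings, filters, DESeq2 1.42.0, other control sets, the replicate block, the study's rule (2-fold, coefficient of variation below 0.7), covering or overlapping reads and leaving out each library. The genes and lists were chosen with earlier results of these data known. Outside the 10 genes, those named were genes that passed the test, the 4 of each list with the highest RPM, the nearest profiles of IL1B and CASP1 among genes with a mean of at least 5 RPM, KCNJ3, and the cell type markers. All other genes named, such as IRAK2, NEK7, SIGIRR, GSDMD, PYCARD, NLRP3, IL18R1, IL36A, IL37, UBE2V1, IL1RAPL2 and CARD17, were chosen after their values were seen. A result that the rule for named genes would include is not reported here. Counting intervals and the 3-read level cover counting error only.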

Additional observations from a re-analysis of the deposited data

Results flagged for a closer look

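MCF10A-WT replicate 1 was set beside the other control libraries (MCF10A-WT replicate 2 and both of MCF10A-eGFP) for the 10 genes, the other pathway genes, the genes known to be induced by IL-1 and KCNJ3. Of these, 4 had a lower 95% Poisson bound in MCF10A-WT replicate 1 that was over 2 times the highest upper bound among the other controls. SIGIRR had 56.7 RPM, against 7.22 to 13.3 RPM. UBE2V1, a partner of UBE2N, had 12.8 RPM, against 0.935 to 2.34 RPM. PYCARD had 49.1 RPM, against at most 0.125 RPM. KCNJ3 had 19.2 RPM, against 0 reads. The library also differed from MCF10A-WT replicate 2 over all genes, with an SD of log2 ratios of 1.84 over 9212 genes, against 0.646 between the MCF10A-eGFP libraries. The cause was not tested.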

How the results depend on the processing

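The comparison rests on 2 libraries per line, and MCF10A-eGFP replicate 1 has the fewest reads of the 4. The MCF10A-eGFP libraries also differed more from each other than the MCF10A-GIRK1 libraries did. Over 9212 genes the SD of log2 ratios was 0.646 and 0.338 within these pairs. Against MCF10A-WT replicate 2 it was 0.722 for MCF10A-eGFP replicate 1 and 0.326 for MCF10A-eGFP replicate 2, which was thus closer to that library than to its own replicate. Of all genes, 172 were called, and with other settings 881 (no filter), 111 (at least 10 reads in each library), 694 (DESeq2), 1309 (the study's rule) and 89 to 2933 (leaving out 1 library, lowest without MCF10A-GIRK1 replicate 2 and highest without MCF10A-eGFP replicate 2). Over all 6 libraries 0 were called by edgeR, with 599 of 11546 below an unadjusted p of 0.05. Of the 10 genes, 1 was called, and 3 with no filter (IL1A, IL1B and IL33), 2 with DESeq2 (IL1A and IL1B), 0 over all 6 libraries, 4 by the study's rule (IL1A, IL1B and IL1R1 lower, IL1RAP higher) and 1 to 3 leaving out 1 library. Of the other pathway genes, 0 were called, and 1 with no filter, 1 with DESeq2 (IRAK2 in both), 3 by the study's rule (IL1RAPL2 lower, SIGIRR and CARD17 higher) and 0 to 6 leaving out 1 library, the most without MCF10A-eGFP replicate 2. Of the genes known to be induced by IL-1, 5 were called, and 8 with no filter, 0 over all 6 libraries, 1 with pooled controls, 3 with covering reads and 3 to 12 leaving out 1 library. At a fold of 1.5 from MCF10A-WT replicate 2, 4 of the 10 genes passed in both MCF10A-GIRK1 libraries (IL1A, IL1B and IL1R1 lower, CASP1 higher), and at a fold of 4 there were 0, against 2 at 2-fold. Leaving out 1 library, CASP1 ran from -0.20 (without MCF10A-GIRK1 replicate 1) to 0.48 and was also negative, -0.18, without MCF10A-eGFP replicate 2. IL1B was lower in all 14 alternative fits (log2 fold change -5.62 to -4.57, adjusted p from 1.04e-32 to 0.902) and passed in 12. IL1A was lower in all 14 (-2.63 to -1.51, adjusted p from 2.02e-06 to 0.94) and passed in 6. The cause of these shifts was not tested.

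With the replicate number as a block, 590 genes were called, all 172 among them, with 2 of the 10 genes (IL1A at an adjusted p of 0.00349 and IL1B), 1 other pathway gene (IRAK2) and 7 genes known to be induced by IL-1. Only 2 pairs share a number, and their replicate differences correlated at r = 0.193 across 9212 genes. The sources used here do not say what the number marks, and whether it stands for a shared batch or day was not tested.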
